A study of Mus musculus with 2 samples.

Results

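The ERBB genes examined were 6 ligands (Areg, Ereg, Hbegf, Btc, Tgfa and Nrg1), 3 receptors (Egfr, Erbb2 and Erbb3) and the feedback inhibitor Errfi1. They were chosen by name, with earlier results of these data known, and every non-control probe whose RefSeq accession belongs to one of them was used. All 10 genes were found, on 12 of 55681 probes and 39 of 59305 spots per array, among 20660 genes that could be named. RNA came from lung epithelial cells of C57BL/6 mice aged 10 weeks. One preparation was labelled Mob1DKO and the other wild type (WT), and each was hybridised to 1 array. The labels do not spell out Mob1DKO, which is taken, from general knowledge of these mice, to stand for a double knockout of Mob1a and Mob1b, adaptors of the LATS kinases in the Hippo pathway. The labels name no allele, no promoter or Cre driver, no treatment and no number of animals per preparation, and both groups share strain, age and cell type.

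ERBB receptors are tyrosine kinases at the cell surface. Ligands such as amphiregulin (Areg) and transforming growth factor alpha (Tgfa) are made as membrane proteins, shed by metalloproteases and bound by Egfr, whereas neuregulin (Nrg1) binds Erbb3, which signals together with Erbb2. Errfi1, also called Mig6, binds the kinase domain of the receptors and blocks it, and its own transcription follows receptor signalling. In the lung these genes take part in airway and alveolar repair, and Areg has been described as a target of YAP, the co-activator that the Hippo pathway restrains.

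Of the probes, 58.6% were well above background for Mob1DKO and 53.1% for WT, with no saturated spot. The 75th percentile of signal was 291 for Mob1DKO and 155 for WT, so the Mob1DKO array was 1.88-fold brighter before scaling. A level is given below as log2 of the signal minus that percentile, and a difference is Mob1DKO minus WT on this scale. With 1 array per group there is no replicate and no test, so the number of arrays limits the precision. The only error available is that between spots, taken from the 30 probes nearest in level among 399 printed at 10 spots, and it is that of the mean where a probe has 10 spots. It leaves out the spread between animals and between RNA preparations. A gene was called when its difference reached 1 in size, which is 2-fold, provided that the brighter array had it well above background. All 12 epithelial markers examined, among them Epcam, Cdh1 and Nkx2-1, were well above background and none was called, the brightest being Krt18 (a difference of −0.13) and Krt8 (−0.09). Both Mob1b probes were lower on the Mob1DKO array (differences of −2.00 and −2.70), and the Mob1a probe, whose place relative to any deleted part is unknown here, differed by 0.07. Xist was lower by 4.90-fold for Mob1DKO and the Y-linked Eif2s3y higher by at least 29.6-fold, so sex and genotype cannot be told apart in these values.

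Betacellulin (Btc) was the ERBB gene with the largest difference, at 2.50-fold higher on the Mob1DKO array, followed by Areg at 1.66-fold higher. The other 8 genes differed by 0.03 to 0.35. Btc was the 1 member called higher of 10, against 3.79% of 15099 genes measured, and none was called lower, against 2.91%. Each of the 10 differences lay above 0, where 53.3% of all genes measured did. That count depends on the choice of genes. Of the 3 ligands measured outside the 10, Epgn lay above 0 and Nrg2 (−0.58) and Nrg4 (−0.72) below. It also includes Ereg and Erbb3, which differed by less than the error between spots, Tgfa, which differed by about that error, and Egfr, which depends on the probe used. The median of the 10 was 0.18, beside 0.02 over all genes. All 10 were well above background on both arrays, so none of these values is a bound.

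**Figure D1:**
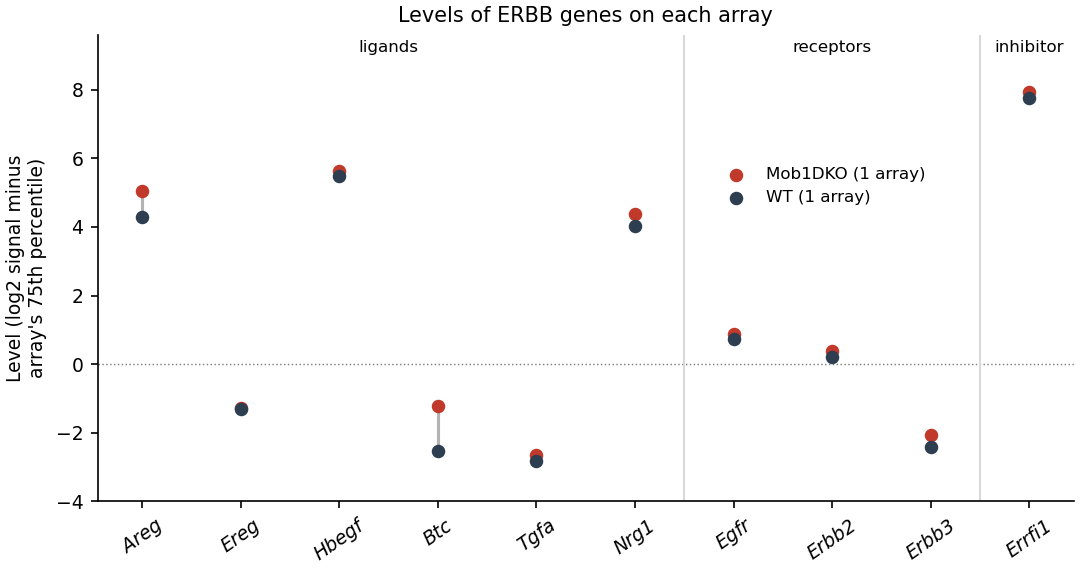
Level of each ERBB gene (log2 signal minus the array's 75th percentile) on the Mob1DKO array (red) and the WT array (dark blue), with 1 array per group and a grey line joining both values of a gene. The lines are longest for Btc (−1.21 against −2.53) and Areg (5.04 against 4.30), and levels of different genes come from different probes and are not comparable.

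Areg (probe annotated to NM_009704) encodes amphiregulin, a low-affinity Egfr ligand released during epithelial injury. Its single spot had a signal of 9564 for Mob1DKO and 3060 for WT, at levels of 5.04 and 4.30. The difference of 0.73 was 14.4 times the error between spots of 0.051 (SD) at this brightness. It fell short of the 2-fold rule. Of the 13866 genes well above background on both arrays, 2.87% had a difference at least as high.

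The bases before the start of Areg are shown because this ligand and the inhibitor Errfi1 share an element found in few promoters. RefSeq promoter sequences on GRCm38.p6 were matched for 6 of the 10 genes, and the 250 bases before each start were searched on both strands. The motifs were CATTCC (bound by TEAD factors, the partners of YAP), TGACGTCA (the cyclic AMP response element), TGANTCA (AP-1), GGGCGG (Sp1) and TATAAA (the TATA box). Capitals mark their matches. Matches of different motifs did not overlap in the windows of the 6 genes, and TGANTCA had no match in any of them.
Areg, chr5:91139349-91139598, plus strand: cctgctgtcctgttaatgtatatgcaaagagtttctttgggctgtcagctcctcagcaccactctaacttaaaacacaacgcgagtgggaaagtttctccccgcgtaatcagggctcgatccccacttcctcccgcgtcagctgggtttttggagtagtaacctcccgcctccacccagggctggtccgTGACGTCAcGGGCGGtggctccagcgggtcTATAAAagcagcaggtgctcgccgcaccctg
Errfi1, chr4:150854820-150855069, plus strand: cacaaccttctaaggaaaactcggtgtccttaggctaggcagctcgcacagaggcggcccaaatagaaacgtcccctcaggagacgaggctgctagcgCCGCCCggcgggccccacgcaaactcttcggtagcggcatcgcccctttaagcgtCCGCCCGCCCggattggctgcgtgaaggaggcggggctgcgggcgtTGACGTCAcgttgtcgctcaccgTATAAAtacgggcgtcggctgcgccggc
Btc, chr5:91402995-91403244, minus strand: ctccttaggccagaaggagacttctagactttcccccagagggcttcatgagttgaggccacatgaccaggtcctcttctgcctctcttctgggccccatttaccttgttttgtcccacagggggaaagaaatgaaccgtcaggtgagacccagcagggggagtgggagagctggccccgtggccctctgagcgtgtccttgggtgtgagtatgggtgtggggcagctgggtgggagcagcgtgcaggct

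The element TGACGTCA was found in 2 of the 6 genes with a sequence. It stood 61 bases before the start of Areg and 51 bases before this start of Errfi1, followed in both by TATAAA at 31 and 28 bases. The element was found in 1.55% of 32851 promoter windows of this length, and TATAAA in 12.4%. The window of a further Errfi1 start lacked both. GGGCGG was found in 4 of the 6 genes, against 32.7% of windows, and TGANTCA in none, against 6.75%. A gene was counted when any of its windows matched, and Errfi1 had more than 1, whereas the shares are per window, so the counts and shares are not strictly alike. Errfi1 also had 3 GGGCGG matches on the opposite strand, of which a pair overlapped, and Areg had 1 on the gene strand. The TEAD letters CATTCC, present in 12.6% of windows, were found before Erbb2 and before that further start of Errfi1, but not in the windows of Areg or Btc. The Btc window, shown because Btc was the called gene, held none of the 5 motifs. A match is a description of the letters and does not show binding.

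Btc (NM_007568) encodes betacellulin, which binds Egfr and Erbb4. Its signal was 126 for Mob1DKO and 26.9 for WT, at levels of −1.21 and −2.53. Both values were well above background but faint, and the difference of 1.32 was 4.23 times the error between spots of 0.31 (SD). Of the genes well above background on both arrays, 0.44% had a difference at least as high. When background was instead modelled on the median spot signals (normexp, the model-based correction below), Btc differed by 0.48 and was no longer called, while Areg differed by 0.97. That setting called 0.66% of all genes higher, against 3.79% as reported. It also adds an offset of 50 to each spot, beside a Btc signal of 26.9 for WT. The parts of the offset and of the background model were not tested.

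**Figure D2:**
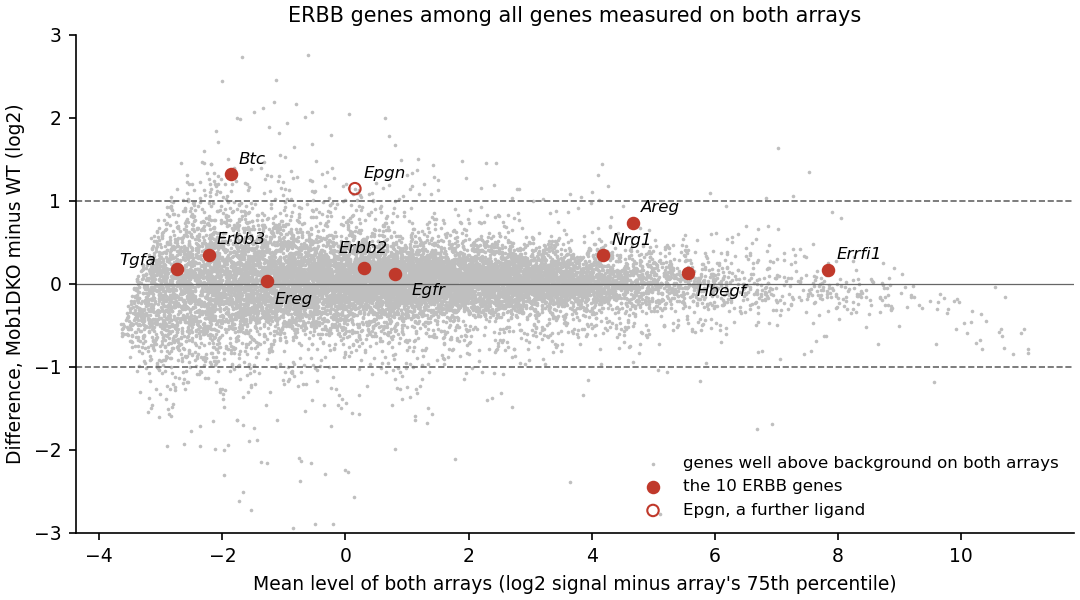
Difference (Mob1DKO minus WT, log2) against the mean level of both arrays for the 13866 genes well above background on both (grey), with the 10 ERBB genes in red, the further ligand Epgn as an open circle and dashed lines at 2-fold. The vertical axis ends at 3 in either direction and leaves out 17 genes. Btc (1.32) and Epgn (1.15) lie above the upper dashed line, and Areg (0.73) lies below it.

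Nrg1, the neuregulin that activates Erbb3, had a signal of 5990 for Mob1DKO and 2511 for WT. Its levels of 4.36 and 4.02 gave a difference of 0.34, with an error between spots of 0.052 (SD). The difference exceeded that error, yet 12.7% of genes measured on both arrays had one at least as high. Hbegf, a heparin-binding Egfr ligand, had signals of 14347 and 7002 and differed by 0.13, with an error of 0.051 (SD). Ereg, which encodes epiregulin, had signals of 121 and 63.2 and differed by 0.03, well within its error of 0.28 (SD). The 2 bright probes among these 3 were thus slightly higher on the Mob1DKO array by more than the error between spots, and Ereg was not.

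Tgfa was read at 10 spots per array, all of them faint. The spot signals ran from 34.2 through a median of 49.1 to 54.2 on the Mob1DKO array. On the WT array they ran from 13.8 through a median of 17.6 to 52.8. That highest WT spot carried the scanner software's outlier flag, as did 2 Mob1DKO spots, and the next WT spot was at 24.1. On the WT array 9 of the 10 spots were well above background. Spot by spot, 7 of 10 differences lay above 0, with an SD of 0.75. The difference of the spot means was 0.17, with an error of 0.17 (SD). Leaving out flagged spots raised it to 0.49, whereas with the model-based background correction it was −0.31. Spots of 1 array are repeats of 1 hybridisation, so their number adds nothing about the animals.

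The receptor Egfr was nearly level. At 10 spots its signal was lowest at 516, with a median of 530 and a highest value of 550, on the Mob1DKO array. The same spots gave 233, 260 and 279 on the WT array. After scaling, 9 of 10 spots were higher on the Mob1DKO array, and the difference was 0.12 with an error of 0.035 (SD). The highest WT spot, at a level of 0.85, overlapped the Mob1DKO spots, the lowest of which was at 0.83. The other Egfr probes went the other way, one with signals of 130 and 81.6 and a difference of −0.24, the other with 34.6 and 20.0 and a difference of −0.12. These 2 probes are annotated to a different RefSeq transcript of Egfr (NM_007912) than the 10-spot probe (NM_207655). Their errors between spots were 0.24 and 0.56 (SD), so no direction is given for that transcript.

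Erbb2, the co-receptor with no known ligand of its own, was also read at 10 spots. Its signals were 361, 379 and 399 (lowest, median and highest) for Mob1DKO and 162, 176 and 203 for WT. The difference was 0.19, with an error of 0.038 (SD), and 9 of 10 spots were higher on the Mob1DKO array. Over all 10 spots, 1 WT spot lay at or above the lowest Mob1DKO spot after scaling. Among the 7 spots flagged on neither array, the lowest Mob1DKO spot lay above the highest WT spot. Erbb3, the neuregulin receptor, was faint, with signals of 70.3 and 29.4. Its difference of 0.35 lay within its error of 0.37 (SD), and it was −0.13 with the model-based background correction. For Egfr and Erbb2 the differences thus exceeded the error between spots at 1.09-fold and 1.14-fold, and 34.0% and 24.8% of genes measured on both arrays had differences at least as high.

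**Figure D3:**
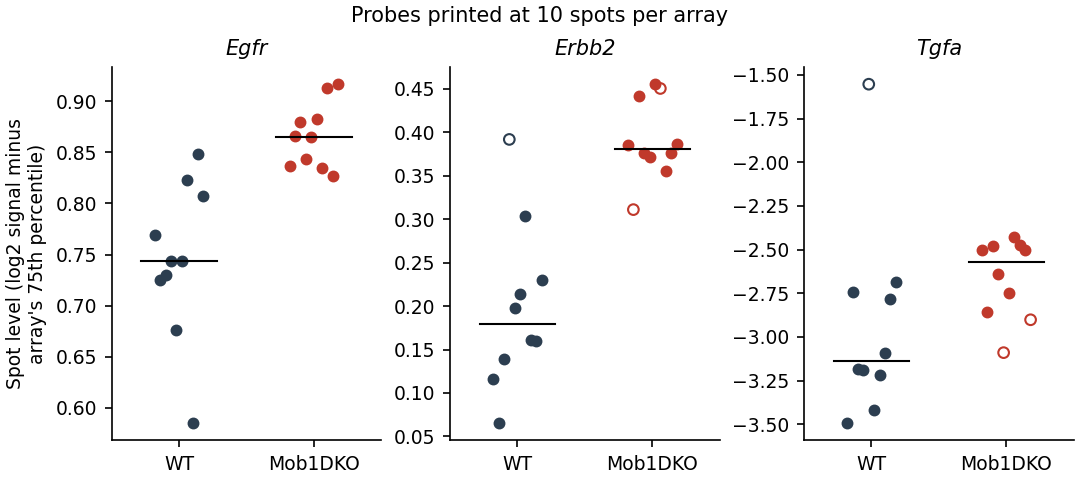
Level of every spot (log2 signal minus the array's 75th percentile) of the Egfr, Erbb2 and Tgfa probes printed at 10 spots, on the WT array and the Mob1DKO array, with black lines at the medians, open circles for spots flagged as outliers and a separate vertical scale in each panel. The Mob1DKO medians are higher in each panel (0.87 against 0.74 for Egfr, 0.38 against 0.18 for Erbb2 and −2.57 against −3.14 for Tgfa), and the highest Tgfa spot is a flagged WT spot at −1.55.

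The inhibitor Errfi1 gave a bright signal on both arrays, 70965 for Mob1DKO and 33551 for WT. Its levels of 7.93 and 7.76 differed by 0.17, with an error between spots of 0.052 (SD). Of genes measured on both arrays, 27.3% had a difference at least as high. Under the settings tried, its difference relative to the median of all genes ranged from 0.15 to 0.27.

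Other receptors and ligands of the family were read from a list of 6 genes. Epgn, which encodes epigen, another Egfr ligand, was 2.21-fold higher on the Mob1DKO array. Its signals were 482 and 116, its levels 0.73 and −0.42, and its difference of 1.15 was called under each of 14 other settings. Nrg2 and Nrg4, further neuregulins, differed by −0.58 and −0.72 and were not called. Both were faint, with errors between spots of 0.30 and 0.56 (SD). Neither array had Erbb4, Egf or Nrg3 well above background, so Erbb4, the receptor shared by Btc and the neuregulins, was not detectable with its single probe. Over the 3 measured genes, 1 was called higher and none lower, with a median of −0.58. Of all genes measured, 3.79% were called higher and 2.91% lower.

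Btc, Areg, Ereg and Epgn are neighbours on chromosome 5, where Mob1b also lies. In the RefSeq order of protein-coding genes, Epgn was the 21st and Btc the 24th gene from Mob1b, with Ereg and Areg between them. Of the 4 ligands in this run, Epgn and Btc were called higher, Areg had the next largest difference and Ereg differed by 0.03. Of the 21 genes between Mob1b and Btc other than Areg and Ereg, 19 were measured, and 5 were called higher (Epgn among them) and 3 lower. That is 42.1%, against 6.7% of all genes measured called either way. Among those well above background on both arrays, 5 of 16 were called, against 2.68% of all such genes. The closest were Dck (−1.06), Slc4a4 (1.08) and Gc (1.28), and both directions occurred along the run. This count was made after the ligands' values were seen, and the part of chromosomal position in the Btc and Areg differences was not tested.

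**Figure D4:**
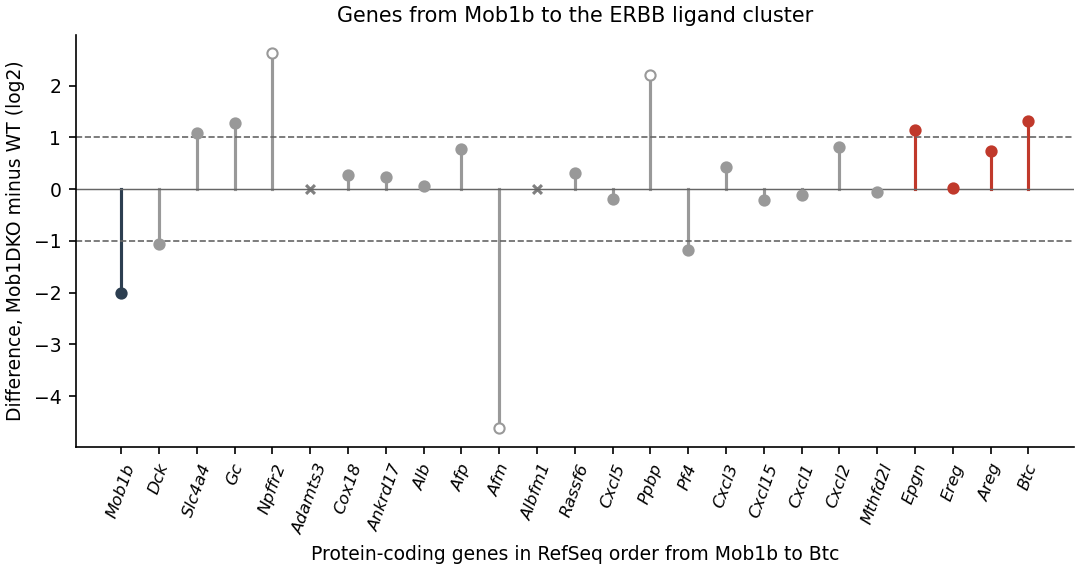
Difference (Mob1DKO minus WT, log2) of each protein-coding gene in RefSeq order from Mob1b (dark blue) to Btc, with the ERBB ligands in red, other genes in grey, dashed lines at 2-fold, crosses for genes above background on neither array and open circles for genes above it on 1 array only, whose plotted difference is not a fold. Differences past 2-fold in both directions occur near Mob1b, and Epgn (1.15) and Btc (1.32) lie past it at the far end.

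Genes that release the ligands differed little. Of 7 genes for sheddases and their partners, none was called, with a median of 0.05 and a range from −0.24 to 0.43. The highest was Adam17, the main protease that sheds Areg, Hbegf and Tgfa, at levels of −1.97 and −2.40. Rhbdf1, which carries Adam17 to the cell surface, and Frmd8, its binding partner, were the brightest and differed by 0.17 and 0.05. Of 24 genes for adaptors and kinases below the receptors, 23 were measured and none was called, with a median of −0.08 and 9 above 0. The transcription factor Stat3 differed by 0.04 and the adaptor Gab1 by 0.46. Of 19 other negative regulators none was called, with a median of −0.10. The ubiquitin ligase Cblc and Lrig1, which lowers receptor levels, differed by −0.16 and −0.18.

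Genes that respond to ERK signalling, the kinase cascade that ERBB receptors drive along with other receptors, were mixed. Of 18 listed, 17 were measured. Of these, 1 was called higher, against 3.79% of all genes measured, and none was called lower, against 2.91%. Differences above 0 numbered 12, where 53.3% of all genes had one, and the median was 0.17, beside 0.02 over all genes. The called gene was Spry2, a feedback inhibitor of receptor tyrosine kinases, at 3.51-fold higher. Its signal was 259 for Mob1DKO and 39.3 for WT, and its difference of 1.81 came down to 0.96 under the model-based background correction. The related Spry1 differed by 0.32, and neither array had Spry4 well above background. The brightest members, Phlda1 and Epha2, differed by 0.33 and −0.15. Of the dual-specificity phosphatases, which dephosphorylate ERK and related kinases, Dusp4 and Dusp6 differed by 0.22 and 0.17, and Dusp5 and Dusp1 by −0.16 and −0.35, the latter being the lowest value of the measured genes of the list. The immediate early genes Fos and Egr1 differed by 0.10 and 0.20. Apart from Spry2, no gene of this list reached 2-fold, and the next highest was Ier3 at 0.64.

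Some markers of cell types that also express ERBB ligands were present on both arrays. In bulk RNA, fewer cells of a type and less RNA per cell cannot be told apart. Summed over the measured markers, leukocyte genes stood at 490 times the array's 75th percentile for Mob1DKO and 530 for WT. Most of that sum came from Lyz2 (a difference of −0.18) and Itgam (−0.05), at levels of 7.92 and 7.88 for Mob1DKO. The next brightest, Csf1r, was at 2.90, and Ptprc was not well above background, so the sum is no measure of leukocyte content. Of the 8 measured leukocyte markers 3 met the rule for a call higher, against 3.79% of all genes measured. None of these 3 was well above background for WT. Cd79a was at least 3.38-fold higher. S100a8 and S100a9, at levels of −3.78 and −4.09 for Mob1DKO, lay below the lowest level well above background on the WT array (−3.45), so no fold can be given for them. Fibroblast genes summed to 101.0 and 107.2, with Lum (at least 2.22-fold) as the 1 called higher of 8, and the brightest, Dcn and Col1a2, at 0.18 and −0.27. Endothelial genes summed to 26.3 and 38.7, with 3 of 7 measured and none called. Kdr and Egfl7 differed by −0.60 and 0.53, and Cdh5, Tek, Tie1 and Emcn were not well above background. Most of the endothelial sum came from Kdr, at levels of 4.63 and 5.23, so it is no measure of endothelial content. Red cell genes summed to 1.30 and 13.9, and all 4 measured, which are globins, were called lower, against 2.91% of all genes measured. Hba-a2 and Hba-a1 differed by −3.42 and −3.10, and Hbb-bt and Hbb-bs, not well above background for Mob1DKO, were at least 19.4-fold and 3.23-fold lower, with values within each pair uncertain because the paired genes are nearly identical.

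Among epithelial types, alveolar type 1 markers had a median of 0.28 with 5 of 7 above 0, type 2 markers −0.21 with 2 of 9 above 0, and ciliated markers −0.04 with 2 of 5 above 0. None of these 3 lists held a called gene. The brightest type 1 markers, Aqp5 and Ager, differed by 0.28 and 0.42, the brightest type 2 markers, Sftpc and Sftpb, by −0.78 and −0.31, and Tubb4b and Dynlrb2 of ciliated cells by −0.04 and −0.30. Of all genes measured, 2.91% were called lower. Goblet markers were called lower in 7 of 7, with a median of −1.64, led in brightness by Muc5b (−1.75) and Tff2 (−2.39). Clca1, a secreted goblet cell protein, had the largest difference of this list at −5.90, and Muc5ac, Spdef, Agr2 and Fcgbp differed by −1.27, −1.31, −1.64 and −1.60. Basal markers were called lower in 3 of 6 (Krt5 by −2.89, Krt15 by −1.57 and Krt17 by −2.57), while Trp63, the brightest, differed by −0.23, and club markers in 1 of 4 (Scgb3a1, −1.19), while Scgb1a1 and Cyp2f2 differed by −0.84 and −0.59. The medians of basal and club markers were −1.06 and −0.72. Outside the epithelial types, medians were 0.09 for leukocyte, 0.12 for endothelial, −0.12 for fibroblast and −3.51 for red cell markers. The part of cell makeup in the ERBB differences was not tested.

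**Figure D5:**
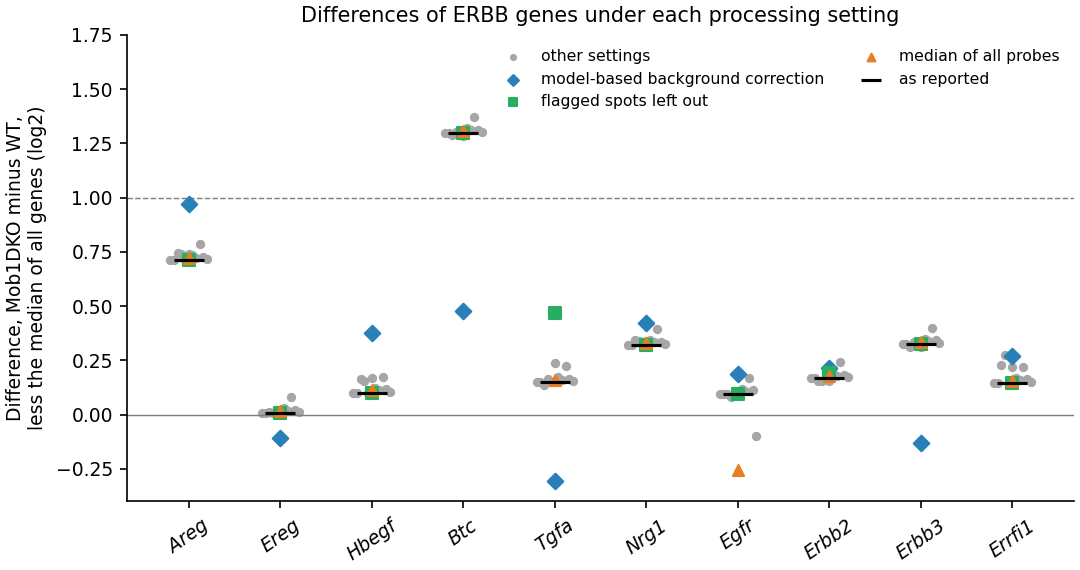
Difference of each ERBB gene (Mob1DKO minus WT, log2, less the median of all genes) as reported (black bars) and under 14 other processing settings (points), with the dashed line at 2-fold. Areg stays between 0.71 and 0.97, Btc is lowest, at 0.48, under the model-based background correction (blue diamond), and Tgfa, Erbb3 and Ereg turn below 0 under that correction.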

How the data were processed

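RNA was amplified, Cy3-labelled and measured on 1-colour Agilent arrays, per the labels' protocols. The deposited scanner files hold intensity per spot, made with Agilent Feature Extraction 10.7.1.1 on a grid of build mm9, per the file headers (9.5.1.1 in the submitters' processing notes), and background-subtracted and detrended but not normalized between arrays. The deposited value table holds intensity with a median of 27.3 in each column. It matched a linear quantile normalization of the same signals within 0.1% for 99.5% and 99.2% of probes, uncentred and with each column following its own array.

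Replicate spots were averaged, and each array's 75th percentile was subtracted after taking log2. Probes were named through RefSeq accessions (27235 of 55681). The brightest probe well above background stood for a gene. No test was possible with 1 array per group. A simulated data set with known differences was used to check the calling. It changed only genes with a WT signal above that of Btc, with the same noise at every brightness. The check therefore does not cover faint genes such as Btc, or genes above background on 1 array only. Python 3.11.15, R 4.3.3 and limma 3.58.1 (normexp with an offset of 50, quantile, loess with span 0.3) were used. The scanner files have no gene name or mean signal column, so names rest on accessions and normexp on median signals.

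All members are named, with called genes and the 2 brightest of each further list, except that some values of the list of adaptors and kinases are not reported here. Chromosome order, Xist, Eif2s3y and further pathway genes were added after values were seen. Members and lists were chosen with earlier results of these data known.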

Additional observations from a re-analysis of the deposited data

How the results depend on the processing

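The number of ERBB genes called higher stayed at 1, as reported, under 12 of 14 other settings. It was 0 under the model-based background correction, where Btc differed by 0.48 and 0.66% of all genes were called higher. It was 9 without scaling, which shifts the median of all genes to 0.93 and calls 40.7% of them higher. No gene was called lower under any of the 14. The median difference of 0.18 became 0.24 under the model-based background correction, 0.25 with loess, 0.25 in the deposited value table, 0.28 without flagged spots and 1.09 without scaling. It was 0.22 with quantile normalization, 0.17 scaled on the array median and 0.15 scaled on housekeeping genes, and it stayed at 0.18 under the remaining settings. The cause of these shifts was not tested, except that leaving out scaling adds the brightness gap between the arrays to every gene. Relative to the median of all genes, Areg ranged from 0.71 to 0.97 and Nrg1 from 0.32 to 0.42. The 10 genes all lay above that median except under the model-based background correction (7 of 10) and with the mean or the median of all probes (9 of 10, Egfr below). Faint genes (Btc, Tgfa, Erbb3 and Ereg) are limited by signal over background. Naming by RefSeq accession alone is the reported setting and was not run again. No paired analysis was possible because each group has 1 array.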
